A study of Mus musculus with 37 samples.

Results

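The clone bulk_2669c4 (named here by the start of its sample titles, as are the others) is a T cell low clone of mouse pancreatic tumour cells whose tumours carried more Myc RNA than the tumours of any other clone with a phenotype label. The 4 tumours of bulk_2669c4 were compared with 11 tumours of the other 6 T cell low clones (bulk_6419c1, bulk_6419c5, bulk_6422c1, bulk_6499c3, bulk_6556c3 and bulk_6694c2), out of 37 tumours in all. The clone was chosen from the values of Myc, Ifng, Ccl5 and Ncr1 in this same comparison, so those 4 genes are described here without a test. Every other difference comes from the same contrast, and passing a threshold in it is a description of these tumours and no independent support for the choice. Both groups had the same history: tumour cells placed under the skin of C57BL/6 mice, no treatment, and bulk RNA from the tumour 3 weeks later. The labels give no age, sex or genotype of the tumour cells. A T cell high group of 15 tumours and an intermediate group of 4 serve only as ranges.

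bulk_2669c4 is 1 clone, so a difference from the other clones cannot be told apart from any other property of its cells. Its tumours share the implanted cells, and p-values computed over tumours are therefore too small. In bulk tissue, fewer cells of a type and less RNA per cell cannot be told apart. Total counts ran from 25995900 to 44356977 in the tumours of bulk_2669c4 and from 7390977 to 43449732 in the others.

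Part of the libraries held liver and heart transcripts, which subcutaneous tumours should lack. Myh6, Myh7 (heart myosins), Cps1 and Serpina3k (liver genes) together took 2026 to 2884 CPM (counts per 1000000 counts of the library) in bulk_2669c4 tumours 1 and 2 and 1508 to 5894 CPM in the 6 tumours numbered 1 of the other low clones. The same 4 genes took at most 0.189 CPM in bulk_2669c4 tumours 3 and 4. In the 5 tumours numbered 2 of the others they took at most 0.538 CPM. The word without refers here to these 4 genes alone. Alb, the albumin gene of liver, took 0.378 and 0.812 CPM in bulk_2669c4 tumours 3 and 4. In the other 5 it ran from 0.0900 to 124 CPM, with 124 CPM in bulk_6419c1, 16.7 CPM in bulk_6499c3 and 4.82 CPM in bulk_6419c5. Differences were therefore fitted over 15 tumours, with this class of library as a term in the model. They were fitted again over the 7 tumours without liver and heart transcripts (2 of bulk_2669c4, 1 each of 5 other clones). A single difference given without naming a fit is from the 15 tumours. Markers of ductal cells were present throughout. With liver and heart transcripts, 20 ductal genes together took 7736 to 7799 CPM in bulk_2669c4 and 5203 to 9720 CPM in the others. Without them, the sums were 8189 to 10321 CPM and 6399 to 11062 CPM. The median log2 difference of these genes was -0.07 over 15 tumours and -0.13 over the 7. Krt19 averaged 1487 CPM in bulk_2669c4 and 1159 CPM in the other low clones.

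Myc is a transcription factor that binds DNA as a dimer with Max and raises transcription of genes for ribosome production, nucleotide synthesis and cell growth. It is a common driver of pancreatic and other cancers, where it can be raised by amplification or by stronger transcription. Pvt1, a long non-coding RNA gene, lies next to Myc and is often gained together with it. Interferon gamma (Ifng) and granzymes are products of activated T cells and natural killer (NK) cells, Ccl5 is a chemokine made by the same cells, and Ncr1 encodes NKp46, a receptor that marks NK cells.

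Myc (chromosome 15, 61985391 to 61990374, plus strand, GRCm38) stood at 282, 221, 548 and 423 CPM in bulk_2669c4 tumours 1 to 4, after TMM scaling over the labelled tumours. The other 11 low tumours lay between 65.0 and 149.9 CPM, with a median of 138. All 4 tumours of bulk_2669c4 were above every other low tumour and above all 19 T cell high and intermediate tumours, whose highest value was 189 CPM. The log2 difference was 1.56 ± 0.23 (SE) over 15 tumours and 1.998 ± 0.268 over the 7 without liver and heart transcripts, which is 2.95-fold and 3.995-fold. The 2 tumours with those transcripts held less Myc than the 2 without, so the clone's own range was wide while the ranges of the groups stayed apart.

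The neighbouring Pvt1 differed more than Myc itself. Its level in bulk_2669c4 tumours 1 to 4 was 268, 202, 305 and 307 CPM, against 4.67 to 11.2 CPM in the other low tumours and at most 12.2 CPM in the T cell high and intermediate tumours. Tumour 2 was the lowest of the 4, and there was no overlap with any labelled tumour of another clone. The log2 difference was 5.06 ± 0.20 over 15 tumours (33.4-fold) and 5.44 ± 0.30 over the 7 (43.5-fold). Pvt1 passed an adjusted p of 0.05 (edgeR quasi-likelihood test, Benjamini-Hochberg) in both fits, and in each of 31 and 12 alternatives to them, including the comparison of summed counts of 1 clone against 6. Its gene runs from 62037986 to 62378096 on the plus strand of chromosome 15, and starts 52.6 kb past the Myc start.

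**Figure D1:**
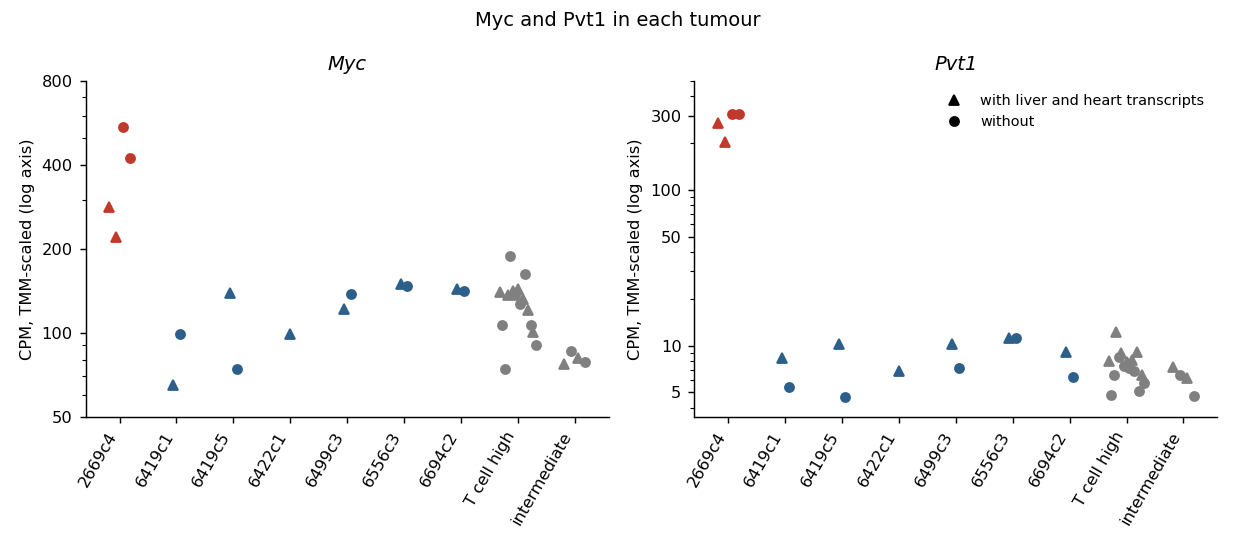
Level of Myc (left) and Pvt1 (right) in each tumour with a phenotype label, in TMM-scaled CPM on a log axis. Red points are bulk_2669c4, blue points the other T cell low clones and grey points the T cell high and intermediate tumours; triangles are libraries with liver and heart transcripts and circles those without. The 4 tumours of bulk_2669c4 are above all others in both panels, from 221 to 548 CPM for Myc and from 202 to 307 CPM for Pvt1.

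No other gene beside Myc was called higher. Of the other 11 tested genes that start within 3 Mb of Myc, none passed in that direction by edgeR in either fit. Over 15 tumours 6.57% of all 17372 genes tested were called, and 3 of these 11 were among them, all lower: Mtss1 (actin regulator; log2 difference -0.82 ± 0.19), E430025E21Rik (-0.62 ± 0.14) and Nsmce2 (a SUMO ligase of DNA repair; -0.68 ± 0.16). Over the 7 tumours, where 0.336% of 16658 genes were called, none of the 11 passed, and Mtss1 stood at -1.13 ± 0.29. Nsmce2 measured 24.1, 22.8, 25.1 and 22.4 CPM in the tumours of bulk_2669c4 and 26.8 to 50.9 CPM in the others, so the groups did not overlap although the step was small. On the far side of Pvt1, Fam49b and Asap1 (a regulator of the cytoskeleton) gave -0.19 ± 0.18 and -0.45 ± 0.14 and did not pass. Adcy8, an adenylyl cyclase gene on the same side, did not pass either and was near 0 in bulk_2669c4, at 0.109, 0.0333, 0 and 0 CPM from 3, 1, 0 and 0 counts, against 0.0702 to 4.99 CPM in the others. Its fitted difference over 15 tumours was -4.64 ± 1.42, which depends on the prior count, and it passed in 5 of 31 alternatives.

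The lower level continued along the part of chromosome 15 before Myc, a division drawn after the window values had been seen. Of 189 tested genes that start before Myc, 30 were called lower and 0 higher over 15 tumours, where 2.77% of all genes were called lower, and their median log2 difference was -0.49. The count was 4 in limma with a correlation within clones, and 0 in clone sums and in the tumours with liver and heart transcripts alone. It was 2 with the tumour number as a replicate block, a setting that has no class term and mixes clone with library class. Past the end of Pvt1 the median of 477 genes was -0.10, close to the -0.07 of all genes, with 14 called lower and 6 higher. Over the 7 tumours the 2 medians were -0.60 and -0.11, and 1 gene in each stretch was called. Ext1, a heparan sulfate synthase, was the gene before Myc called in both fits; it measured 71.4, 88.9, 63.8 and 71.6 CPM in bulk_2669c4 and 110.1 to 204 CPM in the other low tumours.

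Tumour by tumour, the stretch before Myc lay lower in bulk_2669c4 than in any other low tumour. Its median distance from the other low clones of the same library class was -0.36 and -0.27 in tumours 1 and 2, and -0.50 and -0.47 in tumours 3 and 4. The other 11 tumours lay between -0.21 and 0.27. Past Pvt1 the tumours of bulk_2669c4 lay between -0.11 and 0.00, inside the range of the others. In the 7-tumour fit, 237 windows of 10 Mb with at least 20 genes over the genome were ranked from the highest median down. On chromosome 15 those of 0-10, 10-20, 30-40 and 50-60 Mb held the ranks 237, 236, 233 and 234. Rank 235 was a window of chromosome 17, from 60 to 70 Mb, so windows this low were not confined to chromosome 15. The chromosome 15 window from 60 to 70 Mb, where Myc starts, ranked 206. Leaving out bulk_2669c4 tumour 1, 3 or 4 reduced the count of genes called lower before Myc from 30 to 11, 6 and 6. The median stayed between -0.44 and -0.52 with any of the 15 tumours left out. It was -0.39 in the tumours with liver and heart transcripts alone, and -0.21 with the replicate block, which mixes clone with library class.

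**Figure D2:**
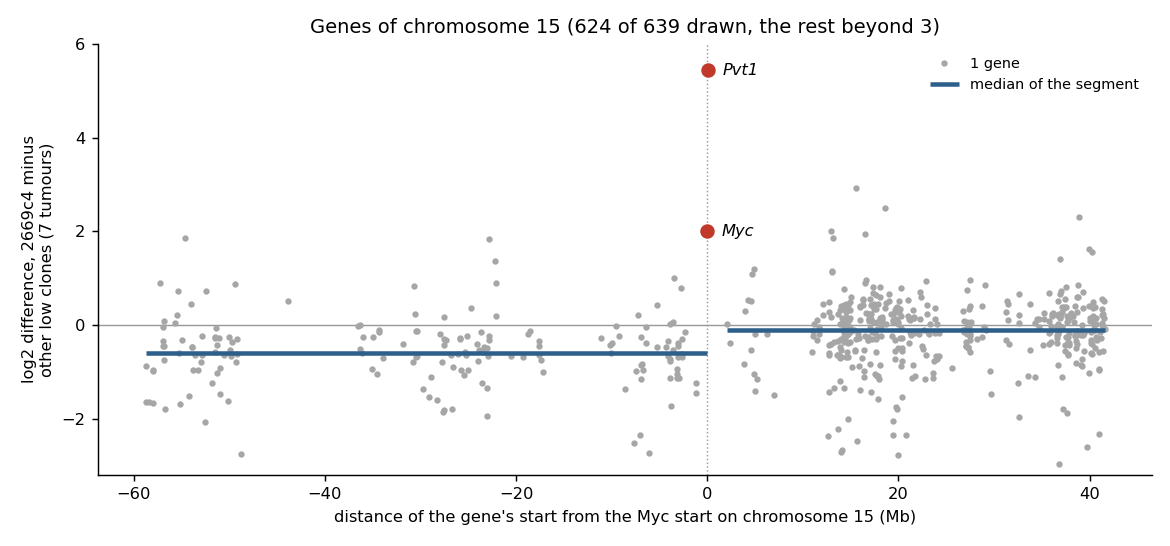
Log2 difference between bulk_2669c4 and the other low clones over the 7 tumours without liver and heart transcripts, for genes of chromosome 15 by distance from the Myc start. Grey points are single genes (15 of 639, with differences beyond 3, are not drawn), red points Myc and Pvt1, and blue lines the medians of -0.60 before Myc and -0.11 past Pvt1.

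Chromosome 16 stood out in the other direction. Of its 540 tested genes 133 were called higher and 4 lower over 15 tumours, which is 25.4% against 6.57% of all genes, and the median log2 difference was 0.36. In the 7 tumours the median was 0.40, and the 8 genes called among 530 were all higher, where 0.24% of all genes were; DESeq2 called 126, 112 of them higher. All 7 of its 10 Mb windows with enough genes ranked among the top 25 of 237, with medians from 0.26 to 0.48. The 4 tumours of bulk_2669c4 lay at 0.33, 0.20, 0.37 and 0.46, and the other low tumours between -0.23 and 0.12. Chromosome 16 was the only chromosome on which the tumours of bulk_2669c4 were above all others in both library classes. Medians of similar size occurred elsewhere in other clones, such as 0.43 for chromosome 13 in bulk_6556c3 and -0.35 for chromosome 12 in bulk_6419c5.

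The median of chromosome 16 kept its sign in every alternative tried, from 0.28 to 0.44 for the 15 tumours and from 0.34 to 0.44 for the 7. The count called higher did not hold in the same way: it was 74 without bulk_2669c4 tumour 1 or tumour 3, 58 without tumour 4, and 0 in the summed counts of 1 clone against 6. Of the 7 tumours, leaving out 1 reduced the 8 calls to 0 (either bulk_2669c4 tumour or bulk_6419c5) or 1 (bulk_6419c1, bulk_6499c3 or bulk_6556c3). The genes called on it in both fits included Cep97 (a centrosome protein), Timmdc1 (assembly of mitochondrial complex I), Usp16 (a histone deubiquitinase), Gart (purine synthesis), Rrn3 (the initiation factor of RNA polymerase I) and Abcc1 (a drug exporter); all but the first pair were picked after their values were seen. Cep97 stood at 14.8, 16.5, 18.6 and 21.3 CPM against 5.22 to 8.37 CPM. Timmdc1 stood at 33.2, 48.5, 51.0 and 55.3 CPM against 15.2 to 26.6 CPM. Both were above every other low tumour in all 4 tumours of bulk_2669c4. A lack of overlap within library classes was a condition for naming this pair.

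**Figure D3:**
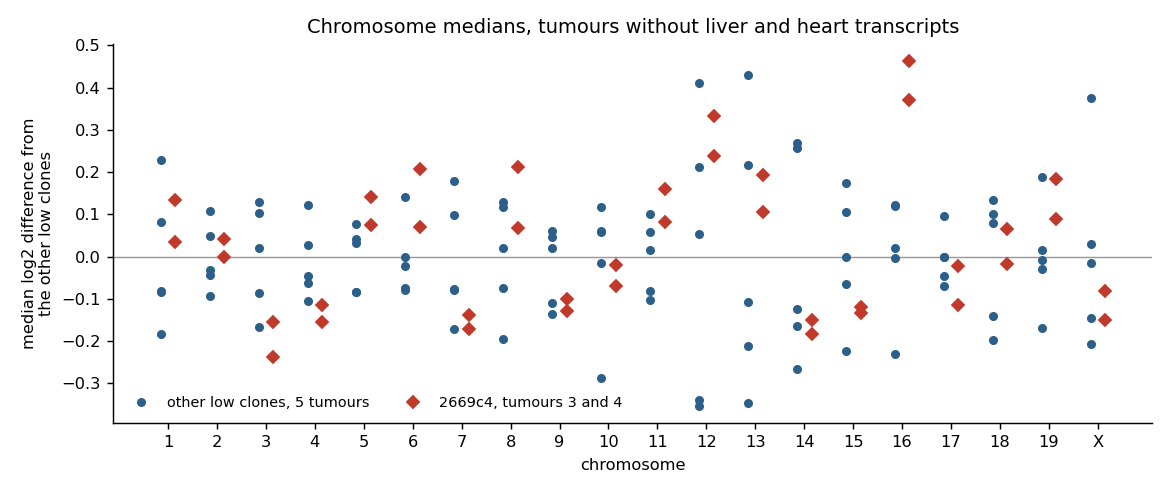
Median log2 difference of the genes of each chromosome from the other low clones, in the 7 tumours without liver and heart transcripts. Red diamonds are bulk_2669c4 tumours 3 and 4 and blue points 1 tumour each of 5 other low clones; on chromosome 16 the diamonds are at 0.37 and 0.46 and the points between -0.23 and 0.12.

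Among the other factors of the MYC network, Max was the only one called. It measured 70.5, 110.1, 111 and 96.3 CPM in bulk_2669c4 and 46.5 to 81.8 CPM in the other low tumours, with tumour 1 inside that range. Its log2 difference was 0.67 ± 0.15 over 15 tumours; at 0.62 ± 0.21 it did not pass over the 7. Mycn, a paralog of Myc, went the other way without passing (-1.22 ± 0.47; 2.92 to 9.02 CPM against 6.21 to 49.4 CPM), as did Mycl (-0.66 ± 0.30). Mxi1 and Mnt, repressors that compete for Max, gave 0.45 ± 0.17 and 0.37 ± 0.18 and did not pass. The remaining 7 members (Mxd1, Mxd3, Mxd4, Mga, Mlx, Mlxip and Mlxipl) differed by at most 0.34 over 15 tumours and 0.40 over the 7, and were not called in either fit.

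Genes of ribosome production and growth that are known MYC targets were higher as a group in the 15-tumour fit. Of 28 measured genes 12 were called higher and 0 lower, where 3.8% of all genes were called higher, and the median log2 difference was 0.49 against -0.07 for all genes. Over the 7 tumours the median was 0.61 against -0.05, but edgeR called 0 of the 28; 19 had an unadjusted p under 0.05, all higher, and DESeq2 called 8. The count was 6 without bulk_2669c4 tumour 1, 7 without tumour 2, 2 without tumour 3 or tumour 4, 5 without bulk_6419c5 tumour 1 and bulk_6694c2 tumour 1 together, and 0 in the summed counts and in limma with a correlation within clones (9 and 13 higher at an unadjusted p under 0.05). The count was also 0 in the tumours with liver and heart transcripts alone. It was 2 with the replicate block, which mixes clone with library class. The list's median stayed between 0.41 and 0.66 in all of these alternatives and the others tried.

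The 12 called genes were chosen for naming after their values were seen, apart from Npm1. Npm1, the nucleolar chaperone nucleophosmin, measured 1814, 2305, 1615 and 1542 CPM in bulk_2669c4 and 527 to 1377 CPM in the other low tumours. All 4 tumours of bulk_2669c4 lay above the others, and the log2 difference was 0.98 ± 0.21 over 15 tumours and 0.79 ± 0.21 over the 7. Nop56 and Nop58, core proteins of the particles that methylate ribosomal RNA, differed by 0.69 ± 0.13 and 0.69 ± 0.17. Nolc1 (0.83 ± 0.18) and Dkc1 (0.56 ± 0.13) act in nucleolar assembly and pseudouridylation, and Ddx21 (0.55 ± 0.13) and Nop16 (0.61 ± 0.17) in ribosomal RNA processing. Outside the nucleolus, the called genes were Odc1 (polyamine synthesis, 0.69 ± 0.19), Nme1 (a nucleoside diphosphate kinase, 0.73 ± 0.14), Tfrc (the transferrin receptor, 0.74 ± 0.19), Hspd1 (a mitochondrial chaperone, 0.65 ± 0.17) and Eif4e (the cap-binding protein, 0.44 ± 0.11). Tfrc lies on chromosome 16, where the median over all tested genes was 0.36. Ncl (nucleolin) was higher in tumours 2, 3 and 4 than in every other low tumour, but tumour 1, at 1068 CPM, was not, and its difference of 0.76 ± 0.23 did not pass. Ppan was the member with a difference below 0 in both fits, at -0.09 ± 0.21 and -0.17 ± 0.40.

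**Figure D4:**
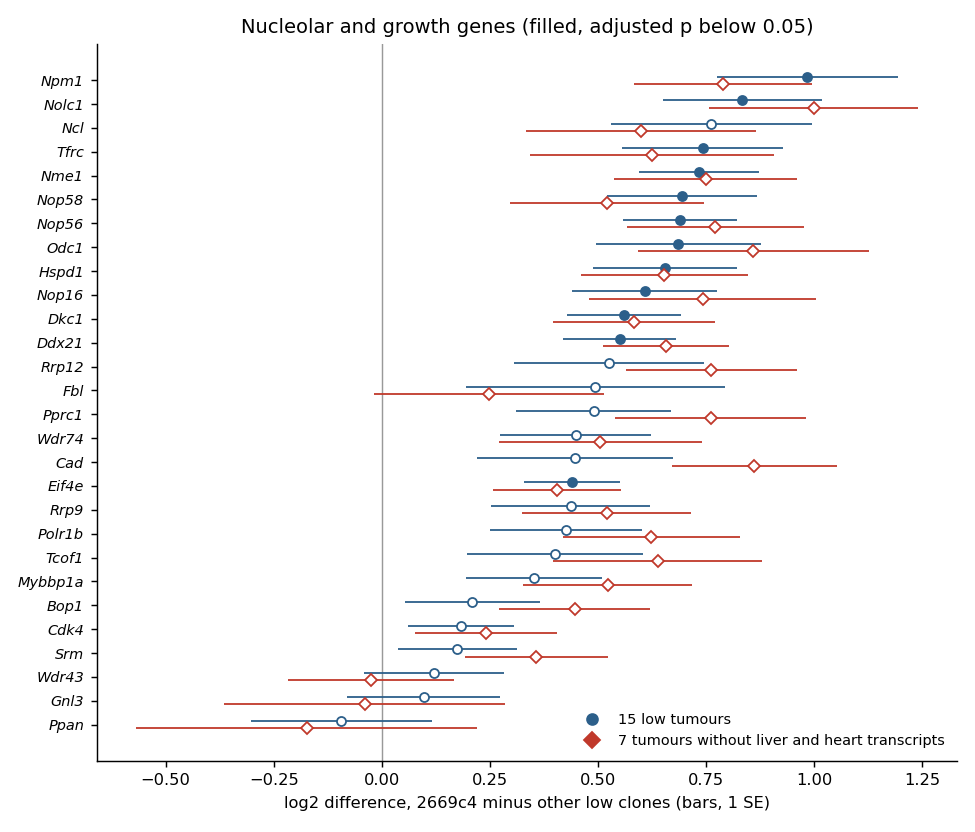
Log2 difference between bulk_2669c4 and the other low clones for the 28 nucleolar and growth genes. Blue circles are the 15-tumour fit and red diamonds the 7-tumour fit, bars are 1 SE, and filled symbols passed an adjusted p of 0.05; 12 circles and 0 diamonds are filled.

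MYC and Max bind the letters CACGTG, the E-box, which reads the same on both strands. Of the 22 genes of this list with a promoter in the RefSeq table (GRCm38.p6), 3 held CACGTG in the 250 bases before the first listed start (13.6%), against 6.04% of 27026 promoters of the same length. They were Nme1, Hspd1 and Cdk4. The sites of Nme1 and Hspd1, the called genes among them, are shown with 10 bases on either side, on the strand of the gene and with the E-box in capitals.
Nme1: tgcggggaacCACGTGaggccgggga
Hspd1: ccggctgggaCACGTGaaaaggccgc
The Nme1 site covers chr11:93968275-93968300 (minus strand) and its E-box begins 18 bases before the start; the Hspd1 site covers chr1:55088308-55088333 (minus strand), with the E-box 80 bases before the start. Annotated exons overlap both promoter windows. Nme1 stood at 87.5, 67.2, 133 and 108 CPM in the tumours of bulk_2669c4 and at 37.3 to 92.4 CPM in the others. Hspd1 stood at 572, 639.8, 602 and 604 CPM against 259 to 533 CPM. A match of these letters is a description and shows no binding.

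Of 22 cell cycle genes 19 had a positive difference over 15 tumours and 18 over the 7, with medians of 0.32 and 0.33 against -0.07 and -0.05 for all genes. Over 15 tumours 2 were called higher, where 3.8% of all genes were, and 0 lower: Ccne1 (cyclin E1, 1.24 ± 0.18) and Pcna (the replication clamp, 0.51 ± 0.15), both named after their values were seen. Ccne1 measured 14.7, 13.3, 20.8 and 20.8 CPM in bulk_2669c4 and 4.86 to 11.98 CPM in the others, with no overlap. The proliferation genes Mki67 and Top2a gave -0.22 ± 0.23 and 0.09 ± 0.20. EdgeR called 0 of the 22 over the 7 tumours, where 2 had an unadjusted p under 0.05 and DESeq2 called 1.

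The 3 lymphocyte genes that chose the clone were at very low levels. Ifng stood at 0.0725, 0.0333, 0.234 and 0.619 CPM in bulk_2669c4 tumours 1 to 4, from 2, 1, 6 and 26 counts. The other 11 low tumours held 4 Ifng counts in all, 8 of them at 0, and their highest level was 0.0627 CPM. Tumours 1, 3 and 4 were therefore above all others and tumour 2 was not, and the high level rested on tumours 3 and 4. The T cell high tumours ranged from 0 to 0.894 CPM.

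Ccl5 measured 0.942, 0.967, 2.38 and 2.36 CPM in bulk_2669c4 and 0.333 to 1.74 CPM in the others. Tumours 3 and 4 were above all 11 and tumours 1 and 2 lay within their range; the T cell high tumours reached 11.3 CPM. Ncr1 measured 0.254, 0.0667, 0.0390 and 0.333 CPM from 7, 2, 1 and 14 counts, against 0 to 0.129 CPM. Tumours 1 and 4 were above the others and tumours 2 and 3 were not, so within the 2 tumours without liver and heart transcripts Ncr1 was high in 1. Ifng and Ncr1 did not pass the filter on low counts in either fit.

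Part of the other lymphocyte genes were called higher in bulk_2669c4 over 15 tumours. In the cytotoxic list 3 of 13 tested genes were called higher over 15 tumours, in the NK cell list 4 of 15 and in the T cell list 5 of 21, and none was called lower; the share over all genes was 3.8% (0.24% over the 7 tumours). The list medians were 1.30, 0.93 and 0.69 over 15 tumours and 0.46, 1.45 and 1.24 over the 7. EdgeR called 0 genes of the first 2 lists over the 7 tumours (6 and 8 at an unadjusted p under 0.05, all higher; 3 and 4 by DESeq2) and 1 of the T cell list. With limma and a correlation within clones 1, 3 and 1 genes were called in the 3 lists, and in clone sums 0 (5, 7 and 8 higher at an unadjusted p under 0.05). The positive cytotoxic median over 15 tumours rested on bulk_2669c4 tumour 1, and was -0.12 without it. Over the 7 tumours 7 of 14 cytotoxic genes had a positive difference, and the median ran from 0.26 without bulk_6556c3 and 0.30 without bulk_6499c3 to 0.87 without bulk_6419c5 and 0.90 without bulk_6694c2. The NK median was 0.44 without bulk_2669c4 tumour 3 and 0.40 in the tumours with liver and heart transcripts alone. The T cell median was -0.01 in the tumours with liver and heart transcripts alone. Removing single tumours left 1 cytotoxic call without bulk_2669c4 tumour 1, 3 or 4, and 2 NK calls without bulk_2669c4 tumour 3. The 5 T cell calls became 3, 1 and 1 without bulk_2669c4 tumours 2, 3 and 4. They became 1 and 2 without tumours 2 of bulk_6419c1 and bulk_6499c3, 3 without either bulk_6419c5 tumour, and 2 without bulk_6694c2 tumour 1.

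Granzyme A (Gzma), a protease of cytotoxic granules that is on the NK list too, measured 1.23, 0.467, 2.96 and 4.47 CPM in bulk_2669c4. The other low tumours reached 0.333 CPM and the T cell high tumours 1.26 CPM, so tumours 3 and 4 were above all of these. Its log2 difference was 4.14 ± 0.65. The other low tumours were too low to bring Gzma past the expression filter, so it entered the test through bulk_2669c4 alone. Its call, counted in both the cytotoxic and the NK list, is a description and no support for a difference. Granzyme B (Gzmb; 6.09, 0.767, 3.04 and 3.07 CPM against 0.129 to 2.18 CPM) and the pore protein Prf1 (2.75, 0.5001, 0.624 and 2.05 CPM against 0 to 0.703 CPM) were also called over 15 tumours. In both of these tumour 2 lay within the range of the others, and for Prf1 tumour 3 did as well. These called members, like those of the next lists, were named after their values were seen.

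The NK list's calls were Gzma, Klrc2, Klrg1 and Txk. Txk, a kinase of T and NK cells, was above all 11 other tumours in each tumour of bulk_2669c4 (2.21, 1.70, 4.83 and 2.57 CPM against 0 to 0.703 CPM), while Klrc2 and Klrg1, receptors of NK cells and of T cells, were so in 3 and 2 of the 4 tumours. Of the NK list, 14 of 15 genes had a positive difference over 15 tumours and 13 of 14 over the 7. The NK markers Klrb1c, Klrk1 and Eomes were not called: Klrb1c (NK1.1) measured 0.300 to 1.33 CPM against 0.1203 to 0.623 CPM, Klrk1 1.20 to 2.57 CPM against 0.227 to 1.93 CPM, and Eomes 2.07 to 5.69 CPM against 0.351 to 9.78 CPM. Itga2, an integrin gene, gave 0.07 ± 0.30, and Klra4, a receptor gene and the member with a difference below 0 over 15 tumours, gave -0.13 ± 0.48.

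Trbc1, a constant segment of the T cell receptor beta chain, was the lymphocyte gene called in both fits. Its level was 9.57, 5.87, 13.8 and 13.0 CPM in bulk_2669c4, against 0.257 to 1.96 CPM in the other low tumours and at most 4.05 CPM in the T cell high tumours. The log2 difference was 3.78 ± 0.38 over 15 tumours and 4.07 ± 0.61 over the 7, where it passed in 4 of 12 alternatives against 30 of 31 over the 15. The near-identical Trbc2 gave 0.62 ± 0.38 and Trac, the constant segment of the alpha chain, 0.13 ± 0.33, and neither was called. Reads can be split between the 2 beta segments. Without liver and heart transcripts, Trbc2 measured 1.40 and 1.14 CPM in bulk_2669c4 against 0.185 to 0.662 CPM, so there both segments were higher. With those transcripts it measured 0.761 and 0.533 CPM against 0.458 to 1.16 CPM, so there only Trbc1 was higher. The other called T cell genes included the CD3 chains Cd3e (1.35 ± 0.35) and Cd3d (1.30 ± 0.35) and the adaptor Lat (1.28 ± 0.34). Cd3e measured 0.543, 0.834, 2.69 and 2.74 CPM against 0.185 to 0.963 CPM, and only tumours 3 and 4 were above all others. Cd8a, the marker of cytotoxic T cells, showed 0.290, 0.5001, 1.17 and 1.57 CPM against 0.0370 to 0.885 CPM and was not called.

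**Figure D5:**
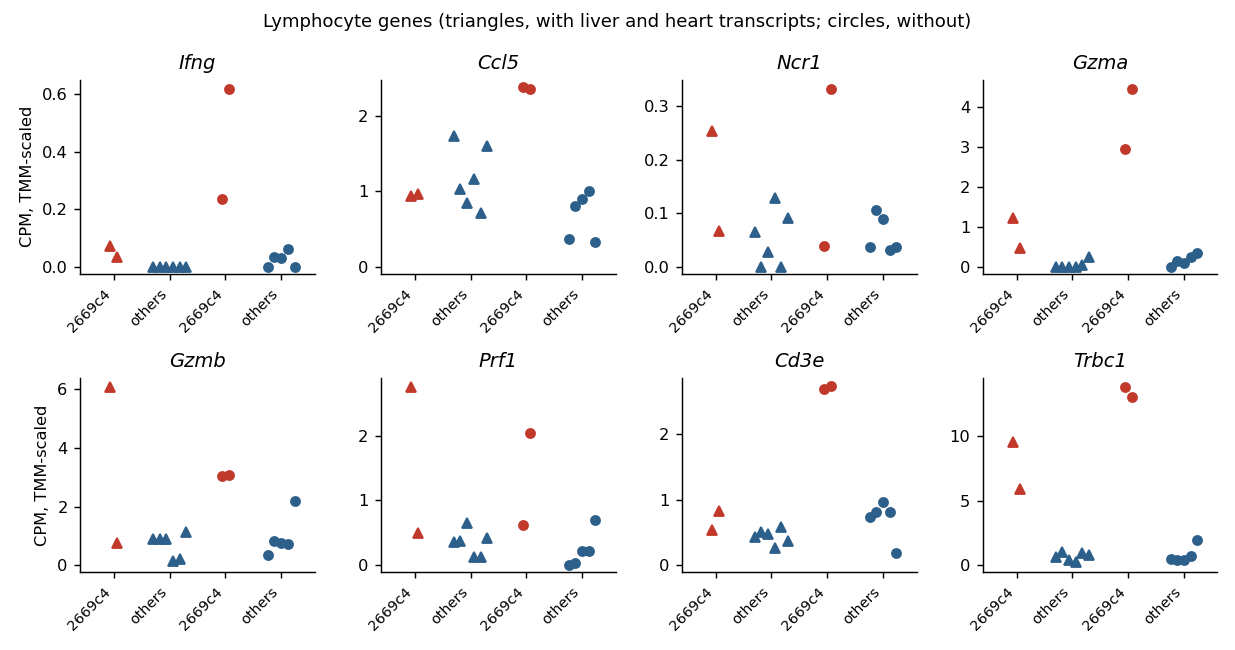
Level of 8 lymphocyte genes in TMM-scaled CPM, 1 point per low tumour. Red symbols are bulk_2669c4 and blue symbols the other low clones, triangles with and circles without liver and heart transcripts. Trbc1 and Gzma of bulk_2669c4 are above all other points, while Ccl5 and Cd3e are so in the circles (2.36 to 2.38 and 2.69 to 2.74 CPM).

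Of 22 genes that respond to interferon gamma, 19 had a positive difference over 15 tumours and 21 over the 7. Over 15 tumours 1 was called higher, where 3.8% of all genes were: Serpina3g (a serpin, 0.95 ± 0.27), and edgeR called 0 over the 7 (4 higher at an unadjusted p under 0.05, 1 by DESeq2). Irf1, a transcription factor induced by interferon, measured 54.5, 30.2, 59.7 and 101 CPM against 33.5 to 80.6 CPM. Tumour 4 was the highest of the low tumours for Irf1, and it also held the most Ifng. The list's median was 0.19 over 15 tumours and 0.73 over the 7, against -0.07 and -0.05 for all genes, and over the alternatives it ran from -0.32 to 0.42 and, with 1 of the 7 left out, from -0.03 to 0.92.

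Of the stroma and tissue lists, the fibroblast list had 1 of 18 genes called lower in each fit, Col6a1 (a collagen chain, -0.71 ± 0.20) over 15 tumours and Lum (lumican, -1.72 ± 0.24) over the 7, where 0.096% of all genes were called lower (2.77% over 15). Col6a1 was not called with RLE scaling, in limma with a correlation within clones or in clone sums; these called 0 of the list. The list's median was -0.65 and -0.83, and 12 and 11 members were lower at an unadjusted p under 0.05. Col1a1, the main collagen, measured 4329 and 2604 CPM in tumours 3 and 4 and 3973 to 7563 CPM in the other tumours without liver and heart transcripts, and was not called. Fscn1, an actin bundler on the dendritic cell list, was called in both fits (182, 237, 630.2 and 532 CPM against 90.4 to 270.4 CPM; 1.17 ± 0.32 and 1.95 ± 0.26), with overlap in tumours 1 and 2. Fabp4, a fatty acid carrier of fat and endothelial cells, was called over 15 tumours (2.01 ± 0.30) and not over the 7 (1.68). It measured 202, 211, 87.7 and 132 CPM against 15.4 to 58.8 CPM. Adipoq, which marks fat cells, averaged 0.286 CPM in bulk_2669c4 and 0.325 CPM in the others.

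The remaining lists held few or no calls. Over 15 tumours, where 3.8% of all genes were called higher and 2.77% lower, calls were Lgr5 (WNT targets; 1 of 11, lower, -1.48 ± 0.34), Ndrg1 and Egln3 (glycolysis and hypoxia; -1.04 ± 0.22 and 0.57 ± 0.14, 2 of 16), Ulbp1 and Nectin3 (NK ligands; -1.18 ± 0.33 and 0.82 ± 0.23, 2 of 11) and Il18r1 (the receptor of interleukin 18; -1.86 ± 0.52, 1 of 10 cytokine genes). Limma with a correlation within clones called 0 in each of these 4 lists, and so did edgeR over the 7 tumours. In the other 19 lists, with 234 genes tested over 15 tumours and 225 over the 7, edgeR called 0 in either fit. There 38 and 42 genes had an unadjusted p under 0.05, and DESeq2 called 5 and 16. Their medians over the 7 tumours included 0.93 for B cell genes (6 of 7 positive) and 0.92 for MHC class II (10 of 10). Over 15 tumours these were 0.31 and 0.33, and in the tumours with liver and heart transcripts alone 0.27 and -0.34. Endothelial genes were at -0.49 over the 7 (1 of 12), red blood cell genes at -1.96 (0 of 8) and liver and heart genes at -2.47 (1 of 5). Over 15 tumours the medians of these were -0.47 (0 of 12 endothelial genes positive), -0.72 and -0.63. The part of these in the lymphocyte and fibroblast values was not tested. These lists cover RAS-MAPK feedback, p53 targets, gamma-delta and innate lymphoid cells, regulatory T cells, inhibitory receptors, T and NK chemokines, type I interferon response, both classes of MHC presentation, B cells, macrophages, granulocytes, myeloid chemokines, ductal epithelium, mesenchymal transition, endothelium, liver and heart, acinar and islet cells and red blood cells.

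Over all genes, 661 were called higher and 481 lower over 15 tumours, and 40 and 16 over the 7. The 48 called in both fits in the same direction are 0.291% of the 16467 genes in both (33 higher, 0.2%, and 15 lower, 0.0911%). With limma and a correlation within clones, 129 were called (0.743%; 117 higher, 0.673%, and 12 lower, 0.0691%). In the clone sums, where the p-value rests on clones, 4 genes were called, all higher (0.02% of 20016; 1177 at an unadjusted p under 0.05): Pvt1, Ppp1r9a, 2410018L13Rik and the immunoglobulin segment Ighv3-5.

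Outside the lists, Ppp1r9a, Kif5c and Disp2 were among the genes higher in both fits. Ppp1r9a (neurabin, which ties a phosphatase to actin) measured 42.9, 41.1, 26.9 and 21.2 CPM against 0.771 to 6.31 CPM, and its log2 difference was 3.62 ± 0.31 and 3.93 ± 0.49. Kif5c, a kinesin motor of axonal transport, measured 104, 129.9, 123 and 158 CPM against 7.41 to 34.3 CPM. Disp2 (of the Dispatched family) measured 34.02, 42.0, 112 and 121 CPM against 4.33 to 27.8 CPM. Each of these was above every other low tumour in all 4 tumours of bulk_2669c4. Genes outside the lists were named only where the groups did not overlap within library classes, so this separation was largely set by the choice. Tmem150c (2.77 ± 0.31), the transcription factor Sox12 (2.16 ± 0.34), Tbc1d9 (1.71 ± 0.26), Tmeff1 (1.68 ± 0.23), the fatty acid carrier Fabp5 (1.54 ± 0.23) and Limd2 (1.08 ± 0.14) were called in both fits as well, the first 5 with no overlap in any of the 4 tumours and Limd2 in 3; of all genes 3.43% lay above the others within both library classes.

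Ncam1 and Egfr were among the genes lower in both fits. Ncam1, a neural cell adhesion molecule, measured 11.6, 15.6, 12.5 and 9.21 CPM in bulk_2669c4 and 23.9 to 56.9 CPM in the others, with log2 differences of -1.56 ± 0.20 and -2.01 ± 0.27. Egfr, the receptor of epidermal growth factor, measured 59.0, 76.7, 17.7 and 21.3 CPM; the others held 89.4 to 143 CPM with and 46.2 to 73.9 CPM without liver and heart transcripts. Egfr was below all others within each class of library and not across them, and liver RNA and Egfr were high in the same libraries. Nebl, a gene of heart muscle, showed the same split, at 13.7, 19.1, 0.429 and 0.381 CPM against 20.9 to 43.8 and 3.01 to 12.9 CPM. Adra1d (an adrenergic receptor, -2.25 ± 0.48), Map4k3 (a kinase, -1.08 ± 0.21), Sfi1 (a centrosome protein, -1.10 ± 0.20) and Epb4.1l1 (a protein of the membrane skeleton, -0.99 ± 0.16) were below every other low tumour in all 4 tumours of bulk_2669c4. Lying below the others within both library classes, as 2.41% of all genes did, was a condition for naming these genes.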

How the data were processed

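RNA of bulk tumours was sequenced, and the authors deposited 1 table of raw read counts for 39017 genes and 37 tumours. Per the submitters' processing notes, tools were STAR and featureCounts with the build mm10. No version, annotation or strand setting was found in the sources, which leaves near-identical, overlapping and antisense genes uncertain. GENCODE M21 (GRCm38) held 37693 of the identifiers and gave the coordinates. Tumours were grouped by the clone and T cell phenotype of the labels. The labels number the tumours and say no more of their origin, so p-values measure only the spread between these tumours; no tumours of bulk_2669c4 were near-identical (chi-square per gene at least 53.0). The members and all 33 gene lists (509 of 517 memberships found) were chosen with earlier results of these data known.

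A library was taken to hold liver and heart transcripts where Myh6, Myh7, Cps1 and Serpina3k summed to over 10 CPM of total counts. Levels are CPM with TMM scaling over the 34 labelled tumours. Differences came from edgeR 4.0.16 (R 4.3.3): quasi-likelihood test, two-sided, TMM, expression filter by group, Benjamini-Hochberg adjustment with a threshold of 0.05, with library class as covariate over 15 tumours and none over 7. SE is the absolute log2 difference divided by the square root of F, and is approximate. Alternatives were DESeq2 1.42.0, limma 3.58.1 (voom with a correlation within clones), RLE scaling, no filter, clone sums, 1 coefficient per clone, and leaving out clones or tumours; leaving out 2 tumours together was added after seeing the data. The fits were tested on simulated data first. Of genes changed there by a log2 difference of 1, the 15-tumour fit recovered 43.9% and the 7-tumour fit 4.55%. At a log2 difference of 2 the shares were 77.3% and 55.4%. An absence of calls over the 7 tumours therefore says little about differences near 1 or smaller.

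Named genes were the 4 markers, the MYC network, genes within 3 Mb of Myc, and up to 4 per list called in both fits (otherwise the 2 with the highest level). Outside the lists they were up to 12 per direction called in both fits, with a mean of at least 1 CPM and no overlap within library classes, leaving out predicted genes. Window medians are over at least 20 genes, and log2 levels behind tumour medians use a pseudocount of 0.5. Some list members are not reported here by name.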

Additional observations from a re-analysis of the deposited data

Results flagged for a closer look

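In the 4 tumours of bulk_2669c4, 109 named genes were looked at for a tumour that stood apart by Dixon's criterion, which chance meets in about 1 group in 20. Ikzf2, a transcription factor of regulatory T cells and other lymphocytes, met it: tumour 3 was the lowest at 7.68 CPM.

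The labels give 3 further tumours no phenotype, those of bulk_6883c1, bulk_6883c4 and bulk_7062c3, and they entered no comparison. Some genes that were higher in bulk_2669c4 were above all 11 other low tumours there too, in CPM of total counts. Trbc1 stood at 2.20 CPM in bulk_6883c1, 9.05 CPM in bulk_6883c4 and 7.11 CPM in bulk_7062c3. Pvt1 stood at 11.2 CPM in bulk_6883c1 and 12.7 CPM in bulk_6883c4, far under bulk_2669c4, whose 202 to 307 CPM are TMM-scaled. The TMM-scaled levels given above for the other low tumours are likewise on another scale than the values here. Tmem150c stood at 4.03, 6.78 and 5.18 CPM in bulk_6883c1, bulk_6883c4 and bulk_7062c3. Tbc1d9 stood at 21.3 CPM in bulk_6883c1 and 21.6 CPM in bulk_6883c4. In bulk_7062c3, Kif5c stood at 67.8 CPM and Disp2 at 43.0 CPM. In bulk_6883c4, Sox12 stood at 9.90 CPM and Cep97 at 12.3 CPM, and in bulk_6883c1 Limd2 stood at 86.8 CPM.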

How the results depend on the processing

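Over 15 tumours 1142 genes were called. The count was 2241 with DESeq2, 515 without the library class term, 4 in clone sums, 129 with limma and a correlation within clones, 2449 with 1 coefficient per clone over 34 tumours, 39 in the tumours with liver and heart transcripts alone, 704 without clone bulk_6419c5, and 594 without bulk_6419c5 tumour 1 and bulk_6694c2 tumour 1 together. Leaving out 1 tumour gave 218 to 1321 calls (414, 298 and 218 without bulk_2669c4 tumours 1, 3 and 4, and 750 without bulk_6694c2 tumour 1). Over the 7 tumours 56 genes were called, against 1434 with DESeq2, 120 without the expression filter, 1 with the bulk_2669c4 tumours summed (1189 at an unadjusted p under 0.05) and 18 with bulk_6419c1 and bulk_6419c5 summed. Leaving out 1 of the 7 gave 1 to 122 calls: 1 without either bulk_2669c4 tumour, 28, 7, 19 and 16 without bulk_6419c1, bulk_6419c5, bulk_6499c3 and bulk_6556c3, and 122 without bulk_6694c2.

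Tumour numbers were not taken as pairs: deviations from clone means in bulk_2669c4 correlated with those of 5 other clones at 0.67 to 0.76 for tumours 1 and at -0.79 to -0.59 for tumours 2. Among those 5 clones they correlated at 0.63 to 0.82, but the number coincides with the library class there, so among them pairing cannot be told apart from it. In bulk_2669c4, tumours 1 and 2 both hold liver and heart transcripts, as do the tumours 1 of the others but not their tumours 2. With the tumour number as a replicate block, over tumours 1 and 2, 393 genes were called, and the differences of Myh7 (12.26) and Nebl (0.47) turned positive. That setting has no class term, so its contrast mixes clone with library class. Of 3223 values of named genes under alternatives to the 15-tumour fit, 3018 kept direction and side of the threshold and 136 fell short of it; of 1234 for the 7 tumours, 1078 and 139 did. The 7-tumour fit rests on 2 tumours of bulk_2669c4.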
